A study of Mus musculus with 11 samples.

Results

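The BCL2 family genes described here are 10 rows of the deposited count table, found by gene symbol among 55486 genes. They are the pro-survival genes Bcl2, Bcl2l1, Mcl1, Bcl2a1a, Bcl2a1b and Bcl2a1d, the effector Bak1, and the BH3-only genes Bcl2l11, Bid and Bad. All 10 had counts in each of 11 libraries of blood eosinophils, which were sorted from FVB/N mice with metastases of mammary tumours and taken on day 21 after treatment started. In 7 mice the treatment was cisplatin, a drug that crosslinks DNA, with antibodies to the checkpoint receptors PD1 and CTLA4 (treated), and 4 mice had control antibody (control). Each library is a different mouse and was made with Smart-seq2, which reads whole transcripts from few cells. No sample with cisplatin alone or with the antibodies alone was analysed here, so the agents cannot be told apart.

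BCL2 family proteins control the release of cytochrome c from mitochondria, the step that commits a cell to apoptosis. Pro-survival members hold the pore-forming effectors BAK and BAX in check, and BH3-only proteins such as BIM, BID and BAD bind the pro-survival proteins or switch the effectors on. Eosinophils are short-lived unless IL-5, IL-3 or GM-CSF prolongs their survival, and much of the supply of BCL2 family proteins is set after transcription, by phosphorylation and protein turnover.

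The 7 treated libraries held 5356118 to 8016658 counts and the 4 control libraries 3733156 to 6721060. All 10 eosinophil markers were detected, at a summed level of 2251 to 8822 counts per 1000000 (CPM) in treated and 5427 to 7268 CPM in control libraries. Epx had 0 counts in treated 3. Single markers varied more than the control sums, and in control 3 Siglecf (243 CPM) and Il5ra (22.8 CPM) were below every treated library. In that library Ccr3 and Alox15 were within the treated range, and the other eosinophil markers, such as Prg2 at 2290 CPM, were above it. Control 3 and control 4 stood apart from the other libraries, with 28.2% and 20.1% of counts on haemoglobin genes, against 1.16% to 4.42% in treated libraries, 1.06% in control 1 and 0.165% in control 2. Detected genes were fewest in these 2 libraries (10775 and 11263, with at least 12639 in each of the others), so results that rest on them are given with and without them. Sample identifiers open with the digits 19 in the treated group and 20 in the control group, and any batch that these digits stand for cannot be told apart from treatment. Their letters are VIS in treated 2 to treated 7 and KDV in the other 5 libraries.

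No member of the family passed the test between treated and control eosinophils. Mcl1 was the highest member per kilobase of exon in 10 of 11 libraries, all but control 3. The group means of Mcl1, Bcl2 and Bcl2l11 differed by less than the spread between libraries. The largest differences, in Bcl2l1 and in the Bcl2a1 copies, were lower in the treated group. That of Bcl2l1 came from control 3 and control 4 and changed sign without them, while the summed Bcl2a1 copies were highest in control 1 and control 2. Of the 10 members 9 passed the filter on low counts, and 0 of these were called in either direction at an adjusted p of 0.05 (quasi-likelihood test of edgeR, adjusted by Benjamini-Hochberg over 11389 genes), as were 0.0% of all genes tested. At an unadjusted p under 0.05 there were 4 members, all lower in treated libraries (Bcl2l1, Bcl2a1a, Bcl2a1b and Bad), while 6.82% of all genes met that rule, 3.13% lower and 3.7% higher. The median log2 fold change, treated over control, was -0.66 over the 9 tested members and 0.03 over all genes tested, with 6 members below 0 and 3 above. Without control 3 and control 4 the median of the same 9 members was 0.10, that of all genes tested was also 0.10, and 4 members were below 0 and 5 above. The Bcl2a1 copies share most of their sequence, so these counts do not stand for independent genes. For 0 of the 9 members did the groups fail to overlap, against 0.43% of all genes lower and 0.509% higher in treated libraries without overlap. DESeq2 called 0 of 10 members (smallest adjusted p = 0.174), against 0.637% of the genes it tested. In bulk samples fewer cells of a type and less RNA per cell cannot be told apart.

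**Figure D1:**
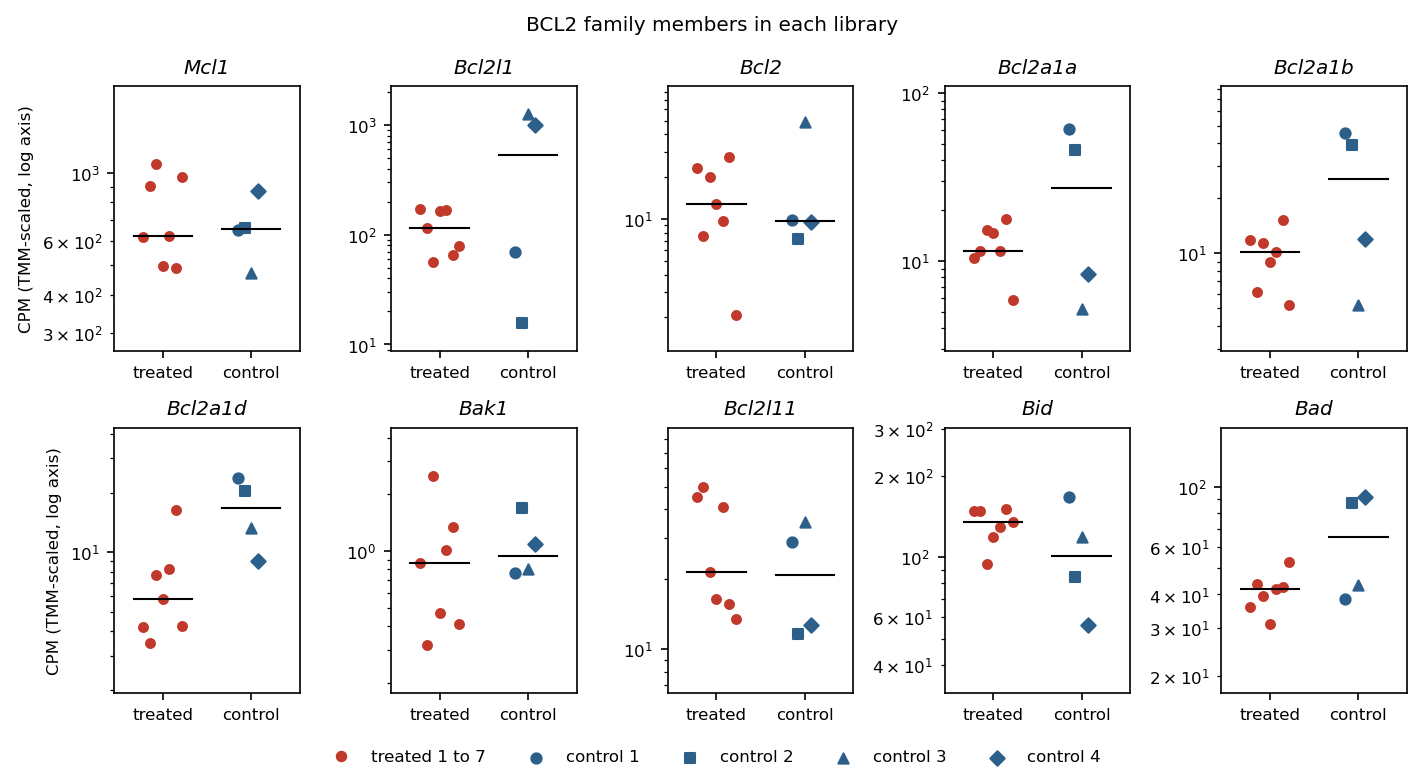
Level of each member in CPM, scaled by TMM and drawn on a log axis, in 7 treated (red) and 4 control (blue) libraries, with the control libraries told apart by symbol and the median of each group as a line. Control 3 and control 4 lie highest for Bcl2l1, control 1 and control 2 lie highest for the 3 Bcl2a1 copies, and the groups overlap in every panel.

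Of the pro-survival genes, Mcl1 encodes a short-lived protein that some myeloid cells, granulocytes among them, depend on. Mcl1 (chromosome 3, 95658788 to 95663176, GRCm38) stood at a lowest level of 487 CPM, a median of 620 CPM and a highest of 1064 CPM in treated libraries, against 650, 660, 471 and 868 CPM in control 1 to control 4. The groups overlapped over nearly the whole range, with control 3 just below the lowest treated library and the other 3 controls among the treated ones. The means were 736 ± 237 CPM in treated mice (SD, n = 7) and 662 ± 162 CPM in control mice (SD, n = 4), which is a log2 difference of 0.15 ± 0.27 (SE; adjusted p = 0.954, edgeR). These CPM are scaled by TMM and count reads of a whole gene, so levels of different genes are compared only per kilobase of exon. On that scale Mcl1 was the highest member in 10 of 11 libraries, at 215 ± 69.3 CPM per kilobase in treated and 194 ± 47.5 in control libraries. It held 50.8% to 75.4% of the summed CPM per kilobase of the 10 members in treated libraries and 27.5% to 50.1% in control libraries. The lowest treated share was thus only just above the highest control share. The exception was control 3, in which Bcl2l1 held 54.8% and Mcl1 27.5%. Shares of a sum move with every member, and the Mcl1 share was low in control 3 and control 4 beside Bcl2l1 shares of 54.8% and 38.6%, and in control 1 and control 2 beside Bcl2a1a shares of 17.4% and 14.6%, above the highest treated share of 7.73%. The level of Mcl1 itself showed no such split. How reads that match more than 1 Bcl2a1 copy were counted is not given. If they were dropped, the shares of these copies are too low and the share of Mcl1 is too high.

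**Figure D2:**
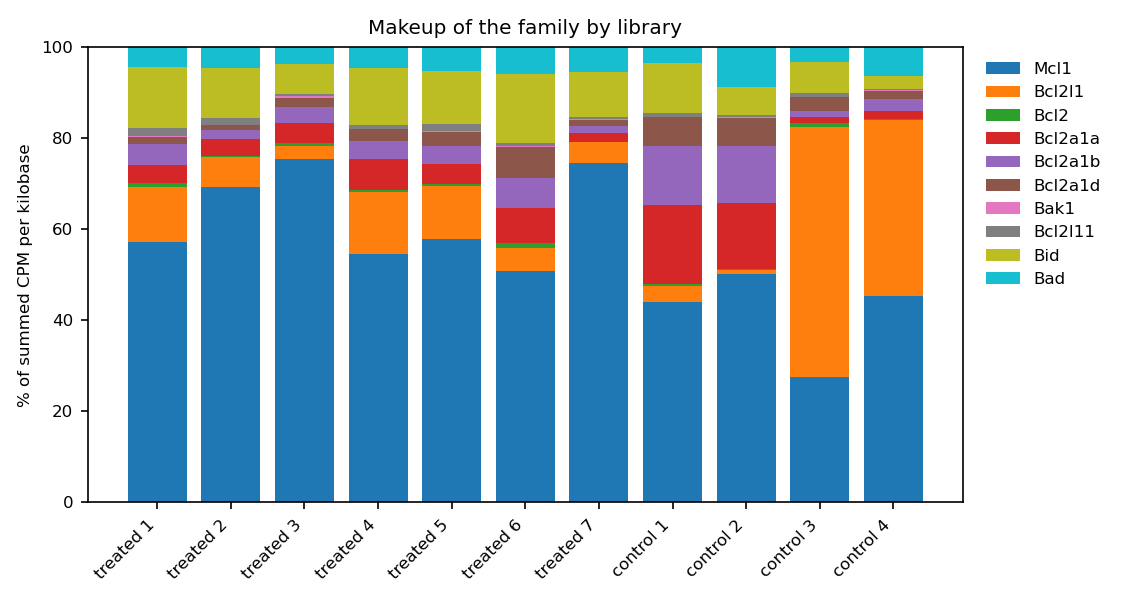
Share of each member in the summed CPM per kilobase of the 10 members, in percent, 1 bar per library. Mcl1 makes up 50.8% to 75.4% of the treated bars, Bcl2l1 makes up 54.8% of control 3 and 38.6% of control 4, and the 3 Bcl2a1 copies are widest in control 1 and control 2.

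Bcl2l1 encodes BCL-XL, a pro-survival protein of the outer mitochondrial membrane that maturing red cells and platelets, among other cells, need to stay alive. Bcl2l1 (chromosome 2, 152780668 to 152831728, minus strand) stood at a lowest level of 55.9 CPM, a median of 116 CPM and a highest of 172 CPM in treated libraries, against 69.3, 15.6, 1258 and 991 CPM in control 1 to control 4. Control 3 and control 4 were high, control 1 lay among the treated libraries and control 2 lay below all of them, so the controls enclosed the treated group on both sides. The lower of control 3 and control 4 was 5.75 times the highest of the other 9 libraries. The highest control was 80.8 times the lowest control, while the highest treated library was 3.08 times the lowest. The log2 fold change over all libraries was -2.31 ± 0.83 (SE; adjusted p = 0.626, edgeR). Without control 3 and control 4 it turned to 1.49, higher in treated libraries (adjusted p = 0.498, edgeR), with 2 controls left. An exact two-sided permutation test on log2 CPM gave p = 0.461.

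Markers of other blood cells moved with Bcl2l1, although red cells were lysed before the sort and the gate took CD45+ F4/80+ CD11b+ cells, per the labels. The 10 erythroid markers summed to 12776 to 46978 CPM in treated libraries, against 9502, 1578, 443652 and 302289 CPM in control 1 to control 4. The 11 platelet markers summed to 956 to 3395 CPM in treated libraries, against 402, 268, 11948 and 9930 CPM in control 1 to control 4. The order of the 4 controls was therefore the same in Bcl2l1, the erythroid markers and the platelet markers, and control 2 was the lowest library in each of the 3. Other marker lists were also above the treated range in control 3 and control 4. The 12 T and NK cell markers summed to 26.8 to 81.4 CPM in treated libraries, against 25.7, 37.8, 176 and 132 CPM in control 1 to control 4, with Cd3e and Il7r at 0 in all controls. The 11 neutrophil markers summed to 14390 CPM or less in treated libraries, against 14857 CPM in control 3 and 16343 CPM in control 4. Most of this sum was Retnlg in every library, at 10163 CPM in control 3 and 15651 CPM in control 4. S100a8 and S100a9 were above the treated range in control 3, at 1475 and 688 CPM. In control 4 they were below every treated library, at 4.36 and 2.54 CPM, so the neutrophil genes did not move together there. The erythroid and platelet lists were detected in full, and the red cell membrane gene Slc4a1 had 0 counts in control 2. Bnip3l, a BH3-related gene whose protein removes mitochondria from maturing red cells, stood in the same order, at 332 ± 94.7 CPM in treated libraries (SD, n = 7) and at 204, 150, 2084 and 1672 CPM in control 1 to control 4. Its log2 fold change was -1.63 ± 0.56 (SE; adjusted p = 0.626, edgeR) and turned to 0.94 without control 3 and control 4. The part of RNA of these other cells in the level of Bcl2l1 was not tested.

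**Figure D3:**
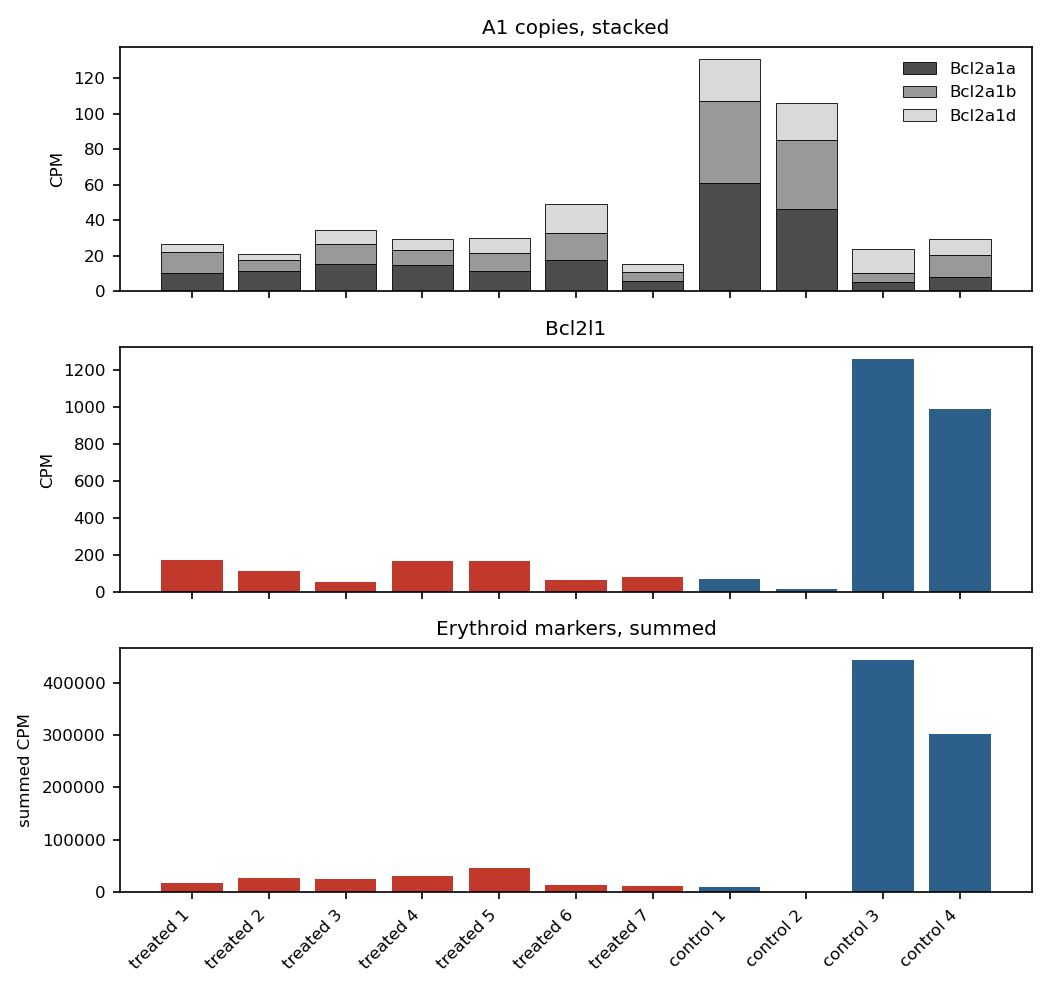
Bars for each library of the 3 Bcl2a1 copies stacked in CPM (top), of Bcl2l1 in CPM (middle) and of the 10 erythroid markers summed in CPM (bottom), treated libraries in red or left and control libraries in blue or right. The Bcl2a1 sum is highest in control 1 (131 CPM) and control 2 (106 CPM), whereas Bcl2l1 and the erythroid markers are highest in control 3 and control 4.

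Within the 7 treated libraries, where no library stood apart in this way, Bcl2l1 and the summed erythroid markers gave Pearson r = 0.529 (exact permutation p = 0.221, adjusted p = 0.642 over 4 relations, both on log2 CPM) and Spearman rho = 0.429 (exact permutation p = 0.354, adjusted p = 0.741). Without the 2 libraries farthest from the median of the markers r was 0.288. With platelet markers r was -0.0648 (exact permutation p = 0.883, adjusted p = 0.883), rho was -0.286 (exact permutation p = 0.556, adjusted p = 0.741), and r was -0.732 without the 2 farthest libraries. Neither relation passed the test at this number of libraries. The 5 of 7744 genes most like Bcl2l1 over the 11 libraries, by Pearson r of log2 CPM, were Ube2o, Isca1, Bpgm, Cdr2 and Epb41, with r from 0.97 to 0.98, and Bpgm is in the erythroid marker list. Control 3 and control 4 lie apart from the other libraries in each of these genes, and over the 7 treated libraries the same 5 genes had r from 0.78 to 0.89.

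RefSeq promoter windows, from 250 bases before to 50 bases after a gene start (GRCm38.p6), were found for all 10 members, in 14 windows. The letters AGATAA, a form of the site bound by the GATA factors of the red cell and eosinophil lineages, were in 1 of these windows, a start of Bcl2l1. Other forms of that site were not searched. This window is shown with that match in capitals, minus strand. It holds the only match to these letters in the family and belongs to the member that varied most between libraries.
Bcl2l1 promoter, chr2:152828440-152828739: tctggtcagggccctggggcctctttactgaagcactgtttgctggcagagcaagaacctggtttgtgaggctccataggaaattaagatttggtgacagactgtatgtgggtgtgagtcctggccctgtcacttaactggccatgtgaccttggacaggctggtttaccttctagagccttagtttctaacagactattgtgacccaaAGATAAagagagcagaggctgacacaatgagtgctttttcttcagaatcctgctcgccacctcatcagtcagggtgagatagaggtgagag
The same letters, searched on both strands, were in 11.2% of 32851 promoter windows of this length, so 1 of 14 is close to the background. The site of NF-kB, searched on both strands too, was matched in another Bcl2l1 window and in that of Mcl1, against 1.63% of all windows. The letters TTCNNNGAA, the form bound by STAT factors, were in none of the 14 windows, against 8.30% of all. A match to letters is a description and shows no binding, and the reference is of another mouse strain than FVB/N.

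The Bcl2a1 genes encode A1, a small short-lived pro-survival protein of haematopoietic cells that NF-kB induces in activated leukocytes. The mouse carries several copies of the gene on chromosome 9, and the 3 members are Bcl2a1d (88723285 to 88731914, minus strand), Bcl2a1a (88956900 to 88962419) and Bcl2a1b (89199209 to 89207827). Their coding sequences of 516 bases differ at 12 positions over the 3 copies, and 7 of these lie in the opening 120 bases. These are shown, GENCODE M21 transcripts on GRCm38, with the differing positions in capitals, since coding reads that span none of the differing positions cannot be assigned to a copy.
Bcl2a1a, chr9:88957051-88957170: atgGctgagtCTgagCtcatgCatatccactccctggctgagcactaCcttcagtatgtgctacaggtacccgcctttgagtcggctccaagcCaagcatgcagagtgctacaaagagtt
Bcl2a1b, chr9:89199360-89199479: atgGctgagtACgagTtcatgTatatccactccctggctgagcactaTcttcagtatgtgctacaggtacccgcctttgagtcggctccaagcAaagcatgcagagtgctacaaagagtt
Bcl2a1d, chr9:88731600-88731719 (minus strand): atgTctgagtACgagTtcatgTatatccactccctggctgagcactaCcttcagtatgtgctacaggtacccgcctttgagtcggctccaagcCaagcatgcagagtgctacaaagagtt
Bcl2a1a and Bcl2a1b were 97.9% identical over the coding sequence, Bcl2a1a and Bcl2a1d 98.6%, and Bcl2a1b and Bcl2a1d 98.8%. Of the 50-base windows of each transcript, 67.7% in Bcl2a1a, 57.6% in Bcl2a1b and 79.5% in Bcl2a1d occurred unchanged in another copy. The levels of single copies are therefore uncertain, and their sum is the safer quantity.

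The A1 sum was highest in control 1 and control 2. It stood at a lowest level of 15.4 CPM, a median of 29.4 CPM and a highest of 49.4 CPM in treated libraries, against 131, 106, 23.6 and 29.4 CPM in control 1 to control 4. Control 1 and control 2 lay above every treated library, with the lower of them 2.14 times the highest of the other 9 libraries, and control 3 and control 4 lay among the treated libraries. The means were 29.4 ± 10.8 CPM in treated mice (SD, n = 7) and 72.5 ± 54.0 CPM in control mice (SD, n = 4), which is a log2 difference of -1.30 ± 0.45 (SE; adjusted p = 0.623, edgeR). The exact two-sided permutation test gave p = 0.0909. Leaving out control 1 moved the fold change to -0.85, and leaving out control 3 and control 4 together moved it to -1.96 (adjusted p = 0.0827, edgeR).

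Each of the 3 copies had a fold change below 0, and none passed the test. Bcl2a1a stood at a lowest level of 5.90 CPM, a median of 11.5 CPM and a highest of 17.8 CPM in treated libraries, against 61.3, 46.1, 5.21 and 8.36 CPM in control 1 to control 4. Bcl2a1b stood at 5.21, 10.1 and 15.2 CPM (lowest, median and highest) in treated libraries, against 45.9, 39.2, 5.21 and 12.0 CPM in control 1 to control 4. In both, control 1 and control 2 were above all treated libraries. Control 3 was below all of them in Bcl2a1a and level with the lowest in Bcl2a1b. The log2 fold changes were -1.27 ± 0.59 for Bcl2a1a (SE; adjusted p = 0.727, edgeR) and -1.36 ± 0.57 for Bcl2a1b (SE; adjusted p = 0.671, edgeR). Bcl2a1d stood at 3.47, 5.78 and 16.4 CPM (lowest, median and highest) in treated libraries, against 23.7, 20.5, 13.2 and 9.09 CPM in control 1 to control 4. Here all 4 controls lay above 6 of the 7 treated libraries, and treated 6 alone made the groups overlap. Its log2 fold change was -1.19 ± 0.59 (SE; adjusted p = 0.738, edgeR). The exact permutation test of Bcl2a1d gave p = 0.0242 (adjusted p = 0.544 over all genes).

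Without control 3 and control 4 the groups did not overlap for the 3 Bcl2a1 copies and for 0 of the other 7 members, and 4.86% of all genes were lower without overlap there. The fold changes were then -2.05 for Bcl2a1a (adjusted p = 0.0987, edgeR), -2.04 for Bcl2a1b (adjusted p = 0.157) and -1.55 for Bcl2a1d (adjusted p = 0.572). In that comparison of 10 tested members, the 3 copies were lower and Bcl2l1 was higher at an unadjusted p under 0.05, against 2.16% of all genes lower and 6.41% higher, and 0.0% of genes passed an adjusted p of 0.05. Counts behind single copies were low, at 22 to 124 in treated and 13 to 483 in control libraries. The share of the A1 counts ran from 22% to 54.5% for Bcl2a1a, from 22% to 44.9% for Bcl2a1b and from 15.9% to 55.9% for Bcl2a1d. In control 3 Bcl2a1d held the 55.9%, on 33 counts.

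Of the 8 marker lists for blood cells, none had a sum above its treated range in both control 1 and control 2. The eosinophil markers Siglecf and Il5ra were higher in these controls than in control 3 and control 4. Siglecf was above the treated range in control 2 only, and Il5ra in control 1 only. Their log2 fold changes without control 3 and control 4 were -0.78 and -0.82 (adjusted p = 0.522 and 0.528, edgeR). Both had an unadjusted p under 0.05. Ccr3 was also below 0 there. The other eosinophil markers were above 0, such as Ear6 at 1.05, also at an unadjusted p under 0.05. Neutrophil markers summed to 4854 to 14390 CPM in treated libraries, against 5843 CPM in control 1 and 11759 CPM in control 2. Most of these sums was Retnlg, at 4201 CPM in control 1 and 11030 CPM in control 2. Mmp9 was also lower in control 1 than in control 2. The other neutrophil markers were higher in control 1, such as S100a8 at 380 CPM against 13.6 CPM. Monocyte and macrophage markers summed to 2011 to 15712 CPM in treated libraries, against 1849 CPM in control 1 and 916 CPM in control 2, the lowest of all libraries. B cell markers summed to 1400 to 5970 CPM in treated libraries, against 2833 CPM in control 1 and 1884 CPM in control 2. Within the treated group Bcl2a1b and the neutrophil markers gave r = -0.430 (exact permutation p = 0.321, adjusted p = 0.642) and rho = -0.321 (exact permutation p = 0.498, adjusted p = 0.741), with r = -0.721 without the 2 farthest libraries. Retnlg made up most of the neutrophil sum in each treated library, so these values mainly describe Bcl2a1b beside that gene. Most like Bcl2a1b over the 11 libraries were Bcl2a1a (r = 0.94), Tmem101 (0.91), Kctd12b (0.91), Eif2d (0.85) and Dnase2a (0.85), and reads shared between the copies can enter the value for Bcl2a1a. Over the 7 treated libraries these 5 genes had r from 0.72 to 0.87. For Mcl1, the 5 genes were Slc49a4, Stk11, Gnai2, Faap20 and Ppp3ca, with r from 0.87 to 0.94 over the 11 libraries and from 0.88 to 0.97 over the treated ones.

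Bcl2, the founding pro-survival gene of the family (chromosome 1, 106538178 to 106714274, minus strand), was among the lowest members per kilobase, at 1.60 ± 1.00 CPM per kilobase in treated and 2.06 ± 2.19 in control mice. It stood at a lowest level of 2.06 CPM, a median of 12.7 CPM and a highest of 27.6 CPM in treated libraries, against 9.89, 7.22, 48.9 and 9.45 CPM in control 1 to control 4. Control 3 was high, and the other 3 controls lay among the treated libraries. The log2 difference of -0.35 ± 0.69 (SE; adjusted p = 0.959, edgeR) became 0.74 without control 3. Bcl2 is also expressed by B cells, whose markers were lowest in control 3, at a summed 813 CPM. Other lists were above their treated ranges in control 3. They were the T and NK cell markers (176 CPM), the monocyte and macrophage markers (18829 CPM), and the erythroid, platelet and neutrophil markers. The part of RNA of other cells in the level of Bcl2 was not tested. Within the treated group Bcl2 and the B cell markers gave r = 0.138 (exact permutation p = 0.778, adjusted p = 0.883) and rho = 0.143 (exact permutation p = 0.783, adjusted p = 0.783), with r = 0.569 without the 2 farthest libraries.

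Bak1 encodes BAK, a pore-forming effector (chromosome 17, 27019810 to 27029009, minus strand). It was close to the limit of detection, with 2 to 17 counts in treated and 2 to 12 counts in control libraries, and did not pass the filter. Its level was 0.989 ± 0.762 CPM in treated mice (SD, n = 7) and 1.09 ± 0.43 CPM in control mice (SD, n = 4), and the groups overlapped over nearly their whole range. Bax, the other effector, is not among the 10 members and was looked at after its values were seen. Bax stood at 77.4 ± 22.1 CPM in treated mice and 76.0 ± 12.1 CPM in control mice (log2 fold change 0.03 ± 0.26, SE, with adjusted p = 0.992, edgeR).

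The 3 BH3-only genes had fold changes on both sides of 0, and none passed the test. Bcl2l11 encodes BIM, which binds every pro-survival member and ends the life of many leukocytes after cytokine withdrawal (chromosome 2, 128126038 to 128162547). It stood at a lowest level of 13.4 CPM, a median of 21.5 CPM and a highest of 49.8 CPM in treated libraries, against 29.0, 11.6, 35.3 and 12.7 CPM in control 1 to control 4. Both groups fell into lower and higher libraries and overlapped throughout, with a log2 difference of 0.38 ± 0.49 (SE; adjusted p = 0.940, edgeR). Bid encodes the link from death receptors to mitochondria, a protein that caspase-8 cleaves (chromosome 6, 120891930 to 120916853, minus strand). It varied least of the members among treated libraries, with the highest 1.59 times the lowest, and stood there at 94.8, 135 and 151 CPM (lowest, median and highest), against 168, 84.5, 119 and 56.3 CPM in control 1 to control 4. The controls spread over a wider range that held the treated one, with a log2 difference of 0.31 ± 0.27 (SE; adjusted p = 0.907, edgeR).

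Bad encodes a BH3-only protein that survival kinases hold inactive by phosphorylation, bound to 14-3-3 proteins (chromosome 19, 6941861 to 6951899). It stood at 31.0, 42.0 and 52.9 CPM (lowest, median and highest) in treated libraries, against 38.6, 87.4, 43.3 and 91.6 CPM in control 1 to control 4. Control 2 and control 4 were above every treated library, and control 1 and control 3 lay among them. The means were 41.1 ± 6.85 CPM in treated mice (SD, n = 7) and 65.2 ± 28.2 CPM in control mice (SD, n = 4), which is a log2 difference of -0.66 ± 0.30 (SE; adjusted p = 0.708, edgeR). Control 2 and control 4 fall on different sides of the split in haemoglobin, and the fold change was -0.57 without control 3 and control 4, no longer at an unadjusted p under 0.05.

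**Figure D4:**
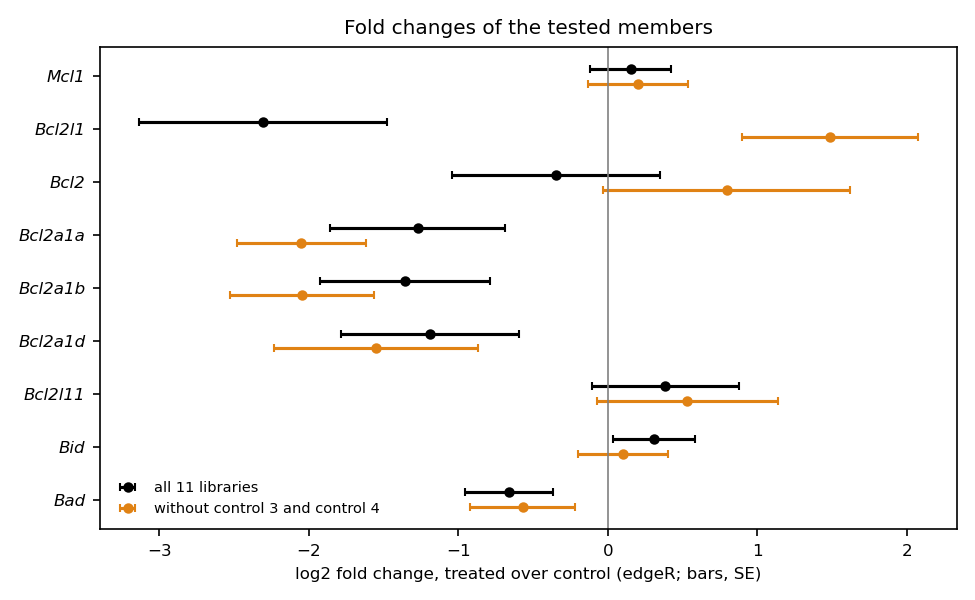
Log2 fold change, treated over control, of the 9 tested members with bars of 1 SE, from edgeR on all 11 libraries (black) and without control 3 and control 4 (orange). Bcl2l1 turns from -2.31 to 1.49 and Bcl2 from -0.35 to 0.79, whereas the 3 Bcl2a1 copies lie further below 0 without those controls.

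Some members share exon bases with another gene in GENCODE M21, and the strand setting of the counts is not given in the sources used here. Bad shares 20.5% of its exon bases with Gpr137 on the opposite strand, which had 69 to 183 counts in treated and 50 to 207 in control libraries. Bid shares 17.7% with Bcl2l13 on the opposite strand, which had 26 to 202 counts in treated and 0 to 168 in control libraries. Bak1 shares 25.5% with Ggnbp1 (0 to 5 counts in treated libraries, 0 in all controls), and Bcl2 shares 6.09% with D630008O14Rik (33 counts, all in 1 treated library). Bcl2a1b shares 49.1% with Gm29094 on the same strand, which had 0 counts in every library. Bcl2l1, Mcl1, Bcl2a1a, Bcl2a1d and Bcl2l11 share none. Reads in the shared bases may have been counted for either gene or dropped.

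Around the family, no other gene of the pathway lists passed the test, by edgeR or by DESeq2. Of 17 other BCL2 family genes 16 are in the table and 9 were tested, of which 0 passed in either direction. At an unadjusted p under 0.05, 1 was higher and 1 lower, against 3.7% of all genes higher and 3.13% lower. The lower one was Bnip3l, given above. The higher one was Bcl2l14, a little-studied family member, at 1.92 ± 2.25 CPM in treated libraries (SD, n = 7), with counts in 4 of them and 0 in all controls (adjusted p = 0.628, edgeR). Pmaip1, which encodes NOXA, the BH3-only partner of MCL1 and a target of p53, stood at 121 ± 50.8 CPM in treated mice and 119 ± 81.4 CPM in control mice (adjusted p = 0.997, edgeR). Of the others, 4 had 0 counts in every library.

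Downstream of the mitochondria, 16 of 17 apoptosome and caspase genes were tested and 0 passed. At an unadjusted p under 0.05, 2 were higher and 2 lower, against 3.7% of all genes higher and 3.13% lower. Apaf1, the scaffold of the apoptosome, stood at 70.3 ± 15.9 CPM in treated mice (SD, n = 7) and 40.6 ± 14.2 CPM in control mice (SD, n = 4), which is a log2 difference of 0.79 ± 0.30 (SE; adjusted p = 0.626, edgeR). Casp2, an initiator caspase of the response to DNA damage, stood at 81.6 ± 24.9 CPM in treated mice and 47.3 ± 14.5 CPM in control mice (adjusted p = 0.634, edgeR). Without control 3 and control 4 the log2 fold changes were 0.79 for Apaf1 and 0.88 for Casp2, so neither rested on those libraries. That of Casp9 was 0.75 over all libraries (unadjusted p = 0.0992, edgeR). Without those controls it was 1.65 (unadjusted p = 0.00356, adjusted p = 0.284, edgeR), where 6.41% of all genes were higher at an unadjusted p under 0.05. The lower 2 were the mitochondrial channels Vdac1, at 28.3 ± 8.58 CPM in treated mice and 46.8 ± 10.7 CPM in control mice, and Vdac3, at 133 ± 22 CPM in treated mice and 186 ± 36.7 CPM in control mice. Without control 3 and control 4 their log2 fold changes were -0.59 for Vdac1 and -0.27 for Vdac3, and neither had an unadjusted p under 0.05. Vdac2, a channel that BAK binds and among the most abundant genes of the list, stood at 186 ± 40.2 CPM in treated mice and 189 ± 33.3 CPM in control mice.

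Of 10 inhibitors of apoptosis (the IAP genes and Cflar) 9 were tested, 0 passed and 0 had an unadjusted p under 0.05. The most abundant were Birc3, at 187 ± 47.9 CPM in treated mice and 152 ± 55.9 CPM in control mice, and Birc6, at 99.4 ± 33.7 CPM in treated mice and 71.3 ± 23.1 CPM in control mice. Of 13 regulators of the member proteins, such as ubiquitin ligases of MCL1 and 14-3-3 proteins that bind BAD, all were tested and 0 passed. Ywhag, a 14-3-3 protein, was higher at an unadjusted p under 0.05, at 74.2 ± 16.6 CPM in treated mice (SD, n = 7) and 43.9 ± 8.70 CPM in control mice (SD, n = 4; adjusted p = 0.626, edgeR). Without control 3 and control 4 its log2 fold change was 0.66, no longer at an unadjusted p under 0.05, which also held for Bcl2l14. Ywhag has more abundant relatives, which stood at 559 ± 102 CPM in treated mice and 662 ± 175 CPM in control mice for Ywhaz, and at 331 ± 52.8 CPM in treated mice and 287 ± 53.5 CPM in control mice for Ywhab. The median log2 fold changes of these 4 lists, in the order given, were 0.02, -0.03, 0.14 and 0.10, against 0.03 over all genes tested.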

How the data were processed

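RNA of sorted blood eosinophils was sequenced in 11 libraries, for which the authors deposited 1 table of raw counts by Ensembl gene. The submitters' processing notes name GRCm38, SAMtools 1.15.1, HISAT2 2.10 and bcl2fastq 2.20.0.422. How reads were counted, with which strand setting and annotation, is not given in the sources used here. The table holds 55486 genes, of which 55226 matched GENCODE M21 by identifier. A further row with no gene name held 0 counts and was left out. Library totals were 3733156 to 8016658 counts without molecular identifiers. SDs measure the spread between libraries, each from a different mouse, so differences between mice and between preparations are held together. SEs give the precision of a fold change in the fit. Pairs of libraries were compared for duplicates and none was found (chi-square of at least 59.2 per gene).

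Groups followed the treatment label, 7 treated and 4 control. The main test was the quasi-likelihood test of edgeR 4.0.16 (R 4.3.3; robust, TMM scaling, filterByExpr, Benjamini-Hochberg adjustment over 11389 genes at 0.05). Fold changes are treated over control, log2, with a prior count of 2, and the SE is the fold change divided by the root of its F value. CPM and marker sums are scaled by TMM, haemoglobin shares are of the library total, and CPM per kilobase use exon lengths of GENCODE M21. Exact permutation tests over all 330 assignments of the libraries, and correlations (Python 3.11.15, scipy 1.17.1), used log2 CPM with a pseudocount of 1. The A1 sum was fitted as 1 row in place of its copies.

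The members, gene lists and the rule for named genes were chosen with earlier results of these data known. The rule named all 10 members, the 2 most abundant genes of each other list and those with an unadjusted p under 0.05, and the 5 genes most like Bcl2l1, Mcl1 and Bcl2a1b at a mean of 10 CPM or more. Some results that this rule covers are not reported here. The test was checked on simulated data. Alternatives were DESeq2 1.42.0 as a test and for its size factors alone, upper-quartile scaling, limma-voom (limma 3.58.1) with quality weights, exact permutation, no filter, a stricter filter (1 CPM in 7 libraries), each library left out, control 3 and control 4 left out, a replicate block, erythroid and platelet genes removed, and identifier letters as a covariate. A fit of replicates 1 to 4 without the block was added after seeing the data. Sequences are from RefSeq promoter windows (GRCm38.p6) and GENCODE M21 transcripts.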

Additional observations from a re-analysis of the deposited data

Results flagged for a closer look

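Of 22 groups of libraries checked, 1 for each member and the A1 sum in each treatment group, 2 held a library far from the others. The gap to the nearest library, over the range of the group, was 0.936 and 0.630 in these, in the order below. A chance rate of about 1 in 20 would hold for independent groups with normally distributed values. The A1 sum holds its copies, so the groups are not independent and that rate is only a rough guide. Bcl2 in control 3 (48.9 CPM) stood far above the other controls, at 7.22 to 9.89 CPM, and decided the sign of its fold change. Bcl2a1d in treated 6 (16.4 CPM) stood far above the other treated libraries, at 3.47 to 8.26 CPM, and in treated 6 the A1 sum was also the highest of the treated group (49.4 CPM).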

How the results depend on the processing

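No member was called under any of the 23 alternatives, and the count of genes called over the whole table was 0 in each of them but DESeq2, which called 82 (60 higher and 22 lower). The A1 sum stayed below 0 throughout, from -1.96 without control 3 and control 4 to -0.85 without control 1 (log2, adjusted p from 0.0827 to 1). Leaving out each library gave a range of -1.57 to -0.85. The fold change of Bcl2l1 turned to 1.49 without control 3 and control 4, ran from -2.71 to -1.54 with each library left out, and was -0.19 with limma-voom, -0.70 with the replicate block and -0.85 as the log2 CPM difference of the exact permutation. That of Bcl2 ran from -0.61 to 0.74 with each library left out and turned to 0.20 with limma-voom, 0.74 without control 3, 0.79 without control 3 and control 4, 0.11 with the replicate block and 0.30 with identifier letters as a covariate, and that of Mcl1 turned to -0.11 with the letters, a fit in which only treated 1 shares its letters with the controls. Apart from the libraries left out, the cause was not tested. Within the treated group, leaving out each library moved r of Bcl2l1 with platelet markers from -0.328 to 0.0621 (above 0 without treated 4, 0.0559, or treated 6, 0.0621) and r of Bcl2 with B cell markers from -0.0330 to 0.489 (below 0 without treated 7). Same-numbered treated and control libraries did not deviate together (correlations -0.039, 0.022, -0.110 and -0.050). These values gave no sign that the numbers pair mice, but a small pair effect could be missed. With the replicate block on replicates 1 to 4 the A1 sum was -1.04, against -1.38 for the same libraries without it, and 0 genes were called in both. A p that misses the threshold does not show equal levels, and SEs on the log2 scale ran from 0.27 for Mcl1 and Bid to 0.83 for Bcl2l1, with a biological coefficient of variation of 0.828 over all genes.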
